A study of Homo sapiens with 9 samples.

Results

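The comparison described here is between 2 knockdowns of the same target, SPANX, in A375 cells, a human melanoma line. Of the 9 libraries in the study, 6 belong to it: 3 labelled SPANX KD 86 and 3 labelled SPANX KD 87, called construct 86 and construct 87 below because the labels give only the numbers. The other 3 libraries, labelled EV control, are the shared reference for both knockdowns and enter here as the background level. RNA was taken 7 days after knockdown in every group, and the libraries were made with QuantSeq, a kit that reads messenger RNA at the 3′ end. All groups share the same line, the same day and the same kit, and the labels name no other difference than the construct. The set of gene IDs with values above 0 also differed between the files of the constructs, as given under the processing. Of 60420 gene IDs in the files, the 13825 with values above 0 in both constructs were compared. Separate cultures are not mentioned for the 3 libraries of a group, and the spread on which each p-value rests may be technical.

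SPANX genes form a family of near-identical copies on the X chromosome, normally active in the developing sperm cell and switched on again in some cancers, melanoma among them. The study's title links the SPANX proteins to lamin A/C, the filament proteins of the nuclear lamina, and to nuclear architecture. Knocking one target down with more than 1 construct is the usual way of separating what the constructs share from what belongs to each. Differences between them are therefore read here in 3 steps: the target itself, the genes that separate the constructs, and the genes that they move in opposite directions from EV.

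Depth and replicate spread were alike in both constructs. The libraries held 11310656 to 15563765 reads with construct 86 and 12670567 to 15267935 with construct 87, recovered from the deposited values, against 12321353 to 14553788 with EV. Across genes, replicates correlated with r between 0.963 and 0.979 for construct 86 and between 0.959 and 0.979 for construct 87, and libraries of different constructs with r between 0.888 and 0.926. Libraries of the same replicate number in both constructs deviated together from their group means, and the counts of a fit with that number as a block, or of fits that left out 1 library, are given below for each gene list where the higher or the lower count moved by more than 1.5 times. Of 7 melanocyte markers, SOX10 and MITF were present, PMEL was low, and TYR, TYRP1, DCT and MLANA stood at 0 in all 9 libraries. Among leukocyte markers, PTPRC, the defining one, CD3E, CD14 and CD68 stood at 0 in all libraries, while LYZ and HLA-DRA had values in all of them, summing to 1485 to 2137 normalised reads with EV, 1344 to 3035 with construct 86 and 1058 to 4023 with construct 87. Of 5 endothelial markers listed in the files, 4 stood at 0 throughout. A gene at 0 in all libraries may have been filtered, so these zeros do not show that a marker was unexpressed.

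Of the 10 SPANX genes in the files only SPANXC (ENSG00000198573.6) and SPANXD (ENSG00000196406.4) had values above 0. The others may have been filtered. The coding sequences of SPANXC and SPANXD are shown because the target of both constructs is here a pair of genes. Their coding sequences differ at 3 of 294 bases (99% identical). The transcripts are 387 and 682 bases long, and their 3′ ends, which the libraries read, were not compared. Reads of one may be counted for the other, so the split between them is uncertain. Both coding sequences are read from the GENCODE v29 transcripts, whose genes lie on the minus strand of GRCh38 at chrX:141241463-141242496 for SPANXC and chrX:141697411-141698739 for SPANXD. Capitals mark the bases at which they differ.
SPANXC: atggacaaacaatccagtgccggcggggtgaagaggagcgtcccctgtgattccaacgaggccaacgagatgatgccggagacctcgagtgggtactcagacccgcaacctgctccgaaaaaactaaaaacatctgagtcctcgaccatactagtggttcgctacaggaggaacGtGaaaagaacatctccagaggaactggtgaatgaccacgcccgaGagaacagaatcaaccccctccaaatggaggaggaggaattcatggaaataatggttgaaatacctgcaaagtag
SPANXD: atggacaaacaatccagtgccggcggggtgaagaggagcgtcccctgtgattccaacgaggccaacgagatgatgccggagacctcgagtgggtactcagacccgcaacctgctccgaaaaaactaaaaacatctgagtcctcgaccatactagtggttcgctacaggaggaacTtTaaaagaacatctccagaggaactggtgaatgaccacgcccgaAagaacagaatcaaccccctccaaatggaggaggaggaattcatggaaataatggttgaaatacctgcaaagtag

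SPANXC transcripts were fewest with construct 87, and SPANXD transcripts were fewest with construct 86. Levels below are normalised reads, the recovered reads of a library brought to a scale common to all 9. The construct 87 libraries held 25.2, 18 and 33.6 for SPANXC, those of construct 86 102, 35.1 and 42.2, and those of EV 400, 149.8 and 511. Each construct 87 library was thus below each construct 86 library, by a narrow margin. The log2 difference, construct 87 minus construct 86, was -1.07 (SE 0.51, adjusted p = 0.149), which did not pass the threshold of 0.05. With the replicate number as a block the same difference passed (adjusted p = 0.0221).

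SPANXD moved the other way between the constructs. The construct 87 libraries held 5.25, 5.99 and 7.13, those of construct 86 0.969, 0.878 and 0 and those of EV 102, 27.4 and 97, without overlap between the constructs. These levels rest on 2 reads in all with construct 86 and 19 with construct 87, a ratio of 9.26 per read of depth (exact 95% interval 2.23 to 82, counting error only). The log2 difference on the scale of reads plus 1 was 2.20 (SE 0.57, adjusted p = 0.0172). It was no longer past the threshold when 1 library was left out, with an adjusted p of 0.0518 on omitting construct 86 replicate 3 and 0.0527 on omitting construct 87 replicate 3. Of the reads of both genes together, SPANXD held 17.6% with EV, 1.02% with construct 86 and 19.3% with construct 87.

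Summed over both genes, SPANX transcripts were at 14.1% of the EV mean with construct 86 and at 7.39% with construct 87. The sum was 102.7, 36.02 and 42.21 normalised reads with construct 86, and 30.48, 23.98 and 40.73 with construct 87. One construct 87 library therefore lay above one construct 86 library. Within each replicate number the construct 87 library was the lower one, by little in replicate 3 (40.73 against 42.21). The test of the sums did not use that pairing. The log2 difference of the sums was -0.78 (exact two-sided permutation test over 6 libraries, p = 0.2, where the smallest p this design allows is 0.1). Without construct 86 replicate 1, the highest of its group, the difference shrank to -0.32.

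**Figure D1:**
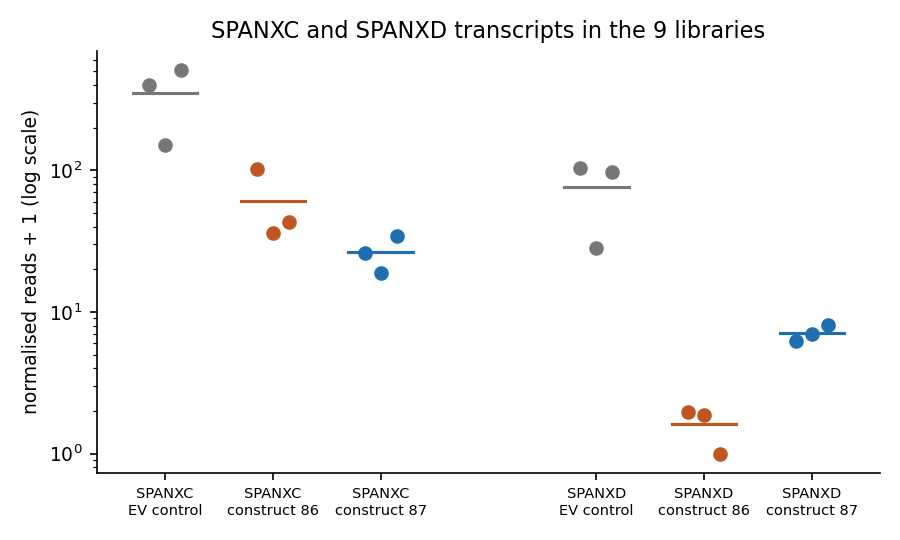
Levels of SPANXC and SPANXD in the 9 libraries, in normalised reads plus 1 on a log axis, with 1 point per library and a bar at each group's mean. For SPANXC the construct 87 points (18 to 33.6) lie just below those of construct 86 (35.1 to 101.7), while for SPANXD they lie above (5.25 to 7.13 against 0 to 0.969).

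Construct 87 and construct 86 differed at 3535 of the 13825 genes (25.6%) at an adjusted p under 0.05. Of these, 1757 (12.7% of all tested) were higher with construct 87 and 1778 (12.9%) were lower. A difference of more than 2-fold was found for 1129 of the former (8.17% of all tested) and 1145 of the latter (8.28%). Irrespective of the test, the 3 libraries of one construct lay wholly above or below the 3 of the other at 6257 genes (45.3%). With the replicate number as a block 6094 genes (44.1%) passed, 3073 higher and 3021 lower with construct 87. Without construct 86 replicate 2 the count was 2207, and without construct 87 replicate 2 the higher count was 1167.

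Most of the separating genes passed the threshold against EV with construct 86 and did not pass it with construct 87, which does not show that the change from EV with construct 87 was absent. Against EV, 4925 genes (35.6%) passed with construct 86, where 2493 rose (18.0%) and 2432 fell (17.6%). With construct 87, 1430 (10.3%) passed, where 817 rose (5.91%) and 613 fell (4.43%). Both of these comparisons use the same EV libraries, and both counts depend on the fit. With the replicate number as a block 7647 genes passed with construct 86 and 4282 with construct 87. The 1430 of construct 87 fell to 521 when EV replicate 1 was omitted, to 368 when its own replicate 1 was and to 608 when its own replicate 2 was, and omitting EV replicate 2 gave 2554. The 4925 of construct 86 fell to 3059 when its own replicate 2 was omitted. Of the 3535 genes that separate the constructs, 2181 (61.7%) passed against EV with construct 86 only, 358 (10.1%) with construct 87 only, 160 (4.53%) with both in the same direction and 66 (1.87%) with both in opposite directions. The remaining 770 (21.8%) passed with neither. The class that passed with construct 86 only held 54.3% of the separating genes with the block and 54.4% to 73% on leaving out 1 library. Counts against EV in what follows come from the fit without the block. Among genes higher with construct 87, 1173 had fallen with construct 86 only and 135 had risen with construct 87 only. Among genes lower with construct 87, 1008 had risen with construct 86 only, 223 had fallen with construct 87 only, and 122 had risen with both, less with construct 87.

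**Figure D2:**
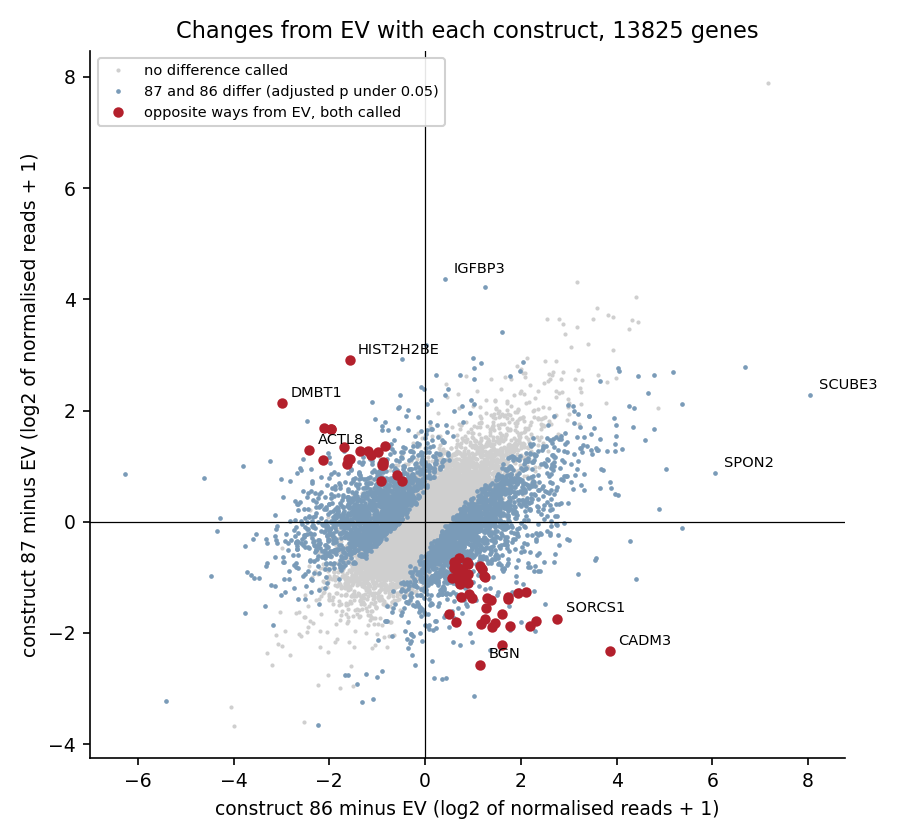
Log2 change from EV with construct 86 (horizontal) and construct 87 (vertical) for each gene tested, both against the same EV libraries. Blue points are the 3535 genes that differ between the constructs, and red points the 66 genes that passed against EV in opposite directions, which lie in the upper left (22) and lower right (44).

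Among the 12 genes with the largest excess in construct 86, SCUBE3 and SPON2 belong to the matrix and adhesion list. SCUBE3, a secreted and surface-bound glycoprotein, was at 12.2, 36.5 and 33.4 normalised reads with EV, 5548, 8811 and 6477 with construct 86 and 142, 129 and 105 with construct 87. All construct 86 libraries were far above all others, and those of construct 87 stayed above EV. The difference between constructs was -5.76 (SE 0.37, adjusted p = 3.16e-05) on the log2 scale, 54.4-fold. SPON2, which encodes the matrix protein spondin 2, was at 78.9, 57.5 and 101 with EV, 5573, 4181 and 6099 with construct 86 and 247, 106 and 109 with construct 87. It rose with construct 86 by 6.06 (adjusted p = 1.27e-05) and was not called with construct 87, at 0.87 (adjusted p = 0.127). CADM3, a neuronal cell adhesion molecule, showed the widest gap by fold: 32.2, 14.6 and 18.3 with EV, 529, 327 and 175 with construct 86 and 6.3, 1.71 and 3.05 with construct 87, a difference of -6.18 (SE 0.5, adjusted p = 0.000101).

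FLT1, a receptor for vascular endothelial growth factor, was at 57.8, 179.9 and 42 with EV, 3198, 1874 and 727 with construct 86 and 74.6, 32.5 and 20.4 with construct 87. The construct 86 libraries differed widely among themselves, yet the lowest was above every other library, and the difference was -5.43 (SE 0.66, adjusted p = 0.000429). MMP9, a gelatinase, was at 137, 4235 and 8776 with construct 86 and 15.8, 63.4 and 52.9 with construct 87, against 11.1, 98.7 and 60.4 with EV. Construct 86 replicate 1 was close to the highest EV library while the others were far above it, and the SE was wide: -5.47 (SE 1.3, adjusted p = 0.0128). The call was not kept in every fit, with an adjusted p of 0.0524 on omitting construct 86 replicate 2 and 0.0538 on omitting construct 87 replicate 1. SOD3, the extracellular superoxide dismutase, was at 844, 820.4 and 647 with construct 86 against 33.6, 39.4 and 20.4 with construct 87 and 27.8, 45.7 and 44.2 with EV, so that the construct 87 and EV libraries overlapped. The same pattern of a high construct 86 group over construct 87 and EV libraries that overlap held for LSAMP, a surface adhesion protein, and SMAD9, a transducer of bone morphogenetic protein signals. Their differences were -4.66 and -4.12. NYNRIN (-4.23) and RHBDL2, a rhomboid protease (-4.22), also belonged to the 12 largest.

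In the other direction, the largest excess in construct 87 combined genes that had risen with it and genes that had fallen with construct 86. IGFBP3, a secreted carrier of insulin-like growth factors, was at 241, 538 and 307 normalised reads with EV, 384, 474 and 528 with construct 86 and 9310, 4790 and 7863 with construct 87. Construct 86 was within the EV range, and every construct 87 library was far above the highest EV library. The difference was 3.94 (SE 0.32, adjusted p = 0.000101), 15.4-fold.

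For other genes among the 12 largest, the construct 86 libraries lay below EV. PAX8, a developmental transcription factor, was at 7.75, 22.8 and 11.7 with construct 86 against 73.3, 111 and 80.8 with EV and 167, 193 and 130.3 with construct 87. It fell with construct 86 by 2.67 on the log2 scale (adjusted p = 0.000609) and was not called with construct 87, at 0.88 (adjusted p = 0.156). CCM2, a scaffold protein named for cerebral cavernous malformations, was at 464, 415 and 368 with EV, 32, 70.3 and 106 with construct 86 and 568, 544 and 505 with construct 87. Every construct 86 library was below every EV library, and every construct 87 library was above them by a small margin. The noncoding RNA UCA1 was at 2931, 3092 and 1842 with EV, 352, 654 and 1088 with construct 86 and 5125, 7520 and 5739 with construct 87, a difference of 3.26 (SE 0.37, adjusted p = 0.000322). DNAH11, a dynein heavy chain of cilia, differed by 4.28, C1RL, a complement-like protease, by 3.52, and HSD17B8, a hydroxysteroid dehydrogenase, by 3.33. The 12 largest were taken only from genes without overlap between constructs.

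**Figure D3:**
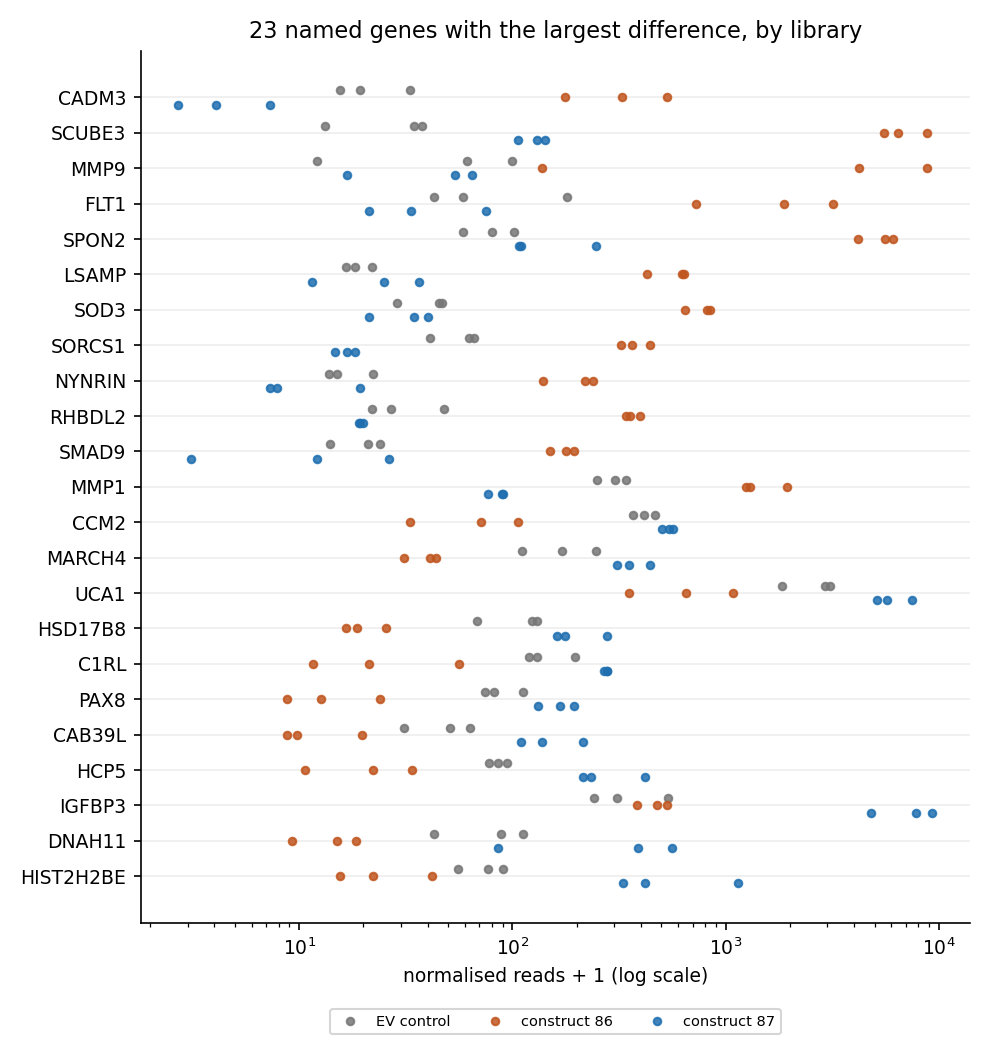
Levels of the 12 genes with the largest excess in construct 86 (top) and of 11 of the 12 with the largest excess in construct 87 (bottom), in normalised reads plus 1 on a log axis, 1 point per library. In the top block the orange points of construct 86 stand to the right, with IGFBP3 and HIST2H2BE in the lower block showing blue construct 87 points to the right of EV.

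The genes moved in opposite directions from EV numbered 66 (0.477% of those tested), of which 44 (0.318%) rose with construct 86 and fell with construct 87 and 22 (0.159%) did the reverse. In 65 of the 66 the libraries of the constructs lay beyond all EV libraries on opposite sides. The choice by 2 tests against these same EV libraries favours that pattern, so it is no separate support. The exception among the 66 was IGFBP7, where 1 construct 87 library reached the lowest EV library. All 66 were opposite with the replicate number as a block, which called 358 genes opposite in all (2.59%), and 52 were opposite after a trend with transcript length had been removed. The count depended on single libraries: 14 of the 66 were opposite in each of the 9 fits that left out 1 library, 13 of which rose with construct 86. Leaving out EV replicate 1 gave 23, EV replicate 3 gave 42, construct 86 replicate 2 gave 36, construct 87 replicate 1 gave 21 and construct 87 replicate 2 gave 26. A broader count, of genes that differ between constructs and whose libraries lie beyond EV on opposite sides, gave 471 genes (3.41%), 239 of them above EV with construct 86 (1.73%) and 232 with construct 87 (1.68%).

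Genes that rose with construct 86 and fell with construct 87 included the following 4, whose products are secreted. MMP1, a collagenase that cuts fibrillar collagen, was at 341, 302 and 248 normalised reads with EV, 1940, 1253 and 1305 with construct 86 and 88.3, 76.2 and 89.6 with construct 87. The 3 groups did not overlap. Its change from EV was 2.31 (adjusted p = 9.64e-05) with construct 86 and -1.79 (adjusted p = 0.0023) with construct 87, and it was opposite in all 9 fits. TIMP3, a matrix-bound inhibitor of metalloproteinases and one of the more abundant transcripts of these cells, was at 11890, 24040 and 15840 with EV, 55350, 50100 and 33380 with construct 86 and 4544, 5859 and 3809 with construct 87. Here too each construct stood on its own side of EV, by 1.45 (adjusted p = 0.00495) and -1.83 (adjusted p = 0.0065). BGN, the matrix proteoglycan biglycan, was at 163, 391 and 195, 549, 556 and 451 and 29.4, 50.5 and 37.7 in the same order of groups, and was opposite in 5 of the 9 fits. IGFBP7, a secreted binding protein of insulin-like growth factors, was at 1166, 508 and 936, 2930, 2854 and 3764 and 271, 278 and 509, and was opposite in 4 of the 9 fits.

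Other genes named in this direction differ in function. SORCS1, a sorting receptor, was at 40, 64.8 and 61.4 with EV, 324, 443 and 364 with construct 86 and 15.8, 13.7 and 17.3 with construct 87, with tight groups and no overlap. CALU, which encodes calumenin, a calcium-binding protein of the endoplasmic reticulum, was at 4089, 5301 and 3914 with EV, 13260, 11550 and 9602 with construct 86 and 1646, 1768 and 1557 with construct 87. SCARA3, a scavenger receptor, was at 159, 220.1 and 109.9, 467, 539 and 441 and 23.1, 36.8 and 41.7 in that order. Each of these 3 was opposite in all 9 fits. CADM3, described above, was opposite in 7 of them, with changes from EV of 3.86 (adjusted p = 0.000424) and -2.32 (adjusted p = 0.0179). VAT1L (-4.06 between constructs) and C1orf21 (-3.13) complete the 8 named in this direction and were opposite in all 9 fits.

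Among the 22 genes that fell with construct 86 and rose with construct 87, DMBT1 had the widest gap between constructs (5.12) and HIST2H2BE the next. HIST2H2BE encodes a core histone H2B and was at 88.9, 54.8 and 75.5 normalised reads with EV, 14.5, 21.1 and 41 with construct 86 and 1143, 419.6 and 331 with construct 87. Construct 87 replicate 1 was the highest by far, and the lowest construct 87 library was still above every EV library. The difference between constructs was 4.48 (SE 0.48, adjusted p = 0.000277), 22.3-fold, with changes from EV of -1.58 (adjusted p = 0.0272) and 2.90 (adjusted p = 0.00638). HIST1H2BK, another H2B gene, was at 136, 146 and 122, 72.6, 57.1 and 48.1 and 452, 317 and 244 in the same order. H2B genes have near-identical coding sequences, and their 3′ ends were not compared, so the share of each in these levels is uncertain.

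The promoters of both genes hold the octamer ATTTGCAT, the motif bound by OCT1 in classical H2B promoters, and a stretch of 100 bases of each is shown because the genes moved together. The sequences are from RefSeq on GRCh38.p14 and are given on the minus strand, which the genes lie on. HIST2H2BE is at chr1:149886699-149886798 and HIST1H2BK at chr6:27146875-27146974. Capitals mark the octamer, which begins 46 bases before the start of each gene.
HIST2H2BE: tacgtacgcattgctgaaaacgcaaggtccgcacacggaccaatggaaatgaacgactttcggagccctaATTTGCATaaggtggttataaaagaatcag
HIST1H2BK: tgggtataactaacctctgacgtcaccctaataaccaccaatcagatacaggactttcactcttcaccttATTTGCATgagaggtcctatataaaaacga
On either strand the octamer occurs in 492 of 27305 promoters (1.8%) of 300 bases, 250 before and 50 after the start. Of the 10 histone genes tested, 8 were matched to a promoter and 4 of these held it: the pair above, HIST1H2AC, which was higher with construct 87 (1.75), and HIST1H2BJ, which was not called (0.66). Of the 4 without the octamer in this window, HIST3H2A (1.98), HIST1H4H (1.685) and HIST1H1C (1.49) were higher with construct 87 as well. HIST1H2BD was not called (0.44). The part of the octamer in these differences was not tested.

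HCP5, a noncoding RNA of the HLA region, was at 76.7, 85 and 93.8 with EV, 9.69, 21.1 and 32.8 with construct 86 and 419, 233 and 214 with construct 87. CAB39L, a cofactor of the kinase LKB1, was at 30, 50.2 and 62.5, 7.75, 8.78 and 18.8 and 213, 137 and 109 in the same order. In both, the 3 groups did not overlap, and the differences between constructs were 3.79 and 3.64. PURB, which encodes a single-stranded nucleic acid binding protein, was at 1075, 1764 and 1121 with EV, 321, 449.8 and 506 with construct 86 and 3561, 2858 and 2151 with construct 87. CALB2, the calcium-binding protein calretinin, was at 342, 401 and 252, 118, 142 and 122 and 1067, 716 and 646. Calretinin transcripts were opposite in 8 of the 9 fits, and those of PURB, HCP5 and CD22, a lectin best known from B cells, in 5. DMBT1, not among the genes named by the rule because of its low level and chosen after its values were seen, was opposite in all 9 and was the only gene of this direction that was. The antisense RNA LBX2-AS1 (2.32) is uncertain, as the strand setting of the counting is not given in the sources used here.

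**Figure D4:**
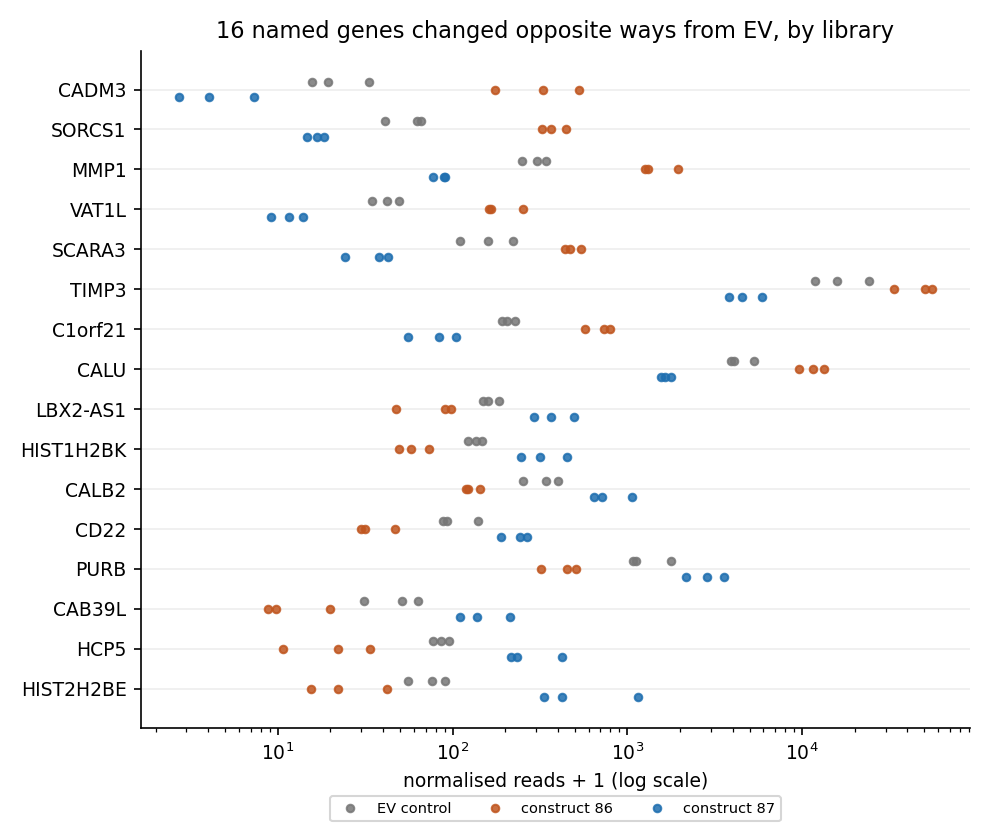
Levels of 16 genes that passed against EV in opposite directions, in normalised reads plus 1 on a log axis, 1 point per library. In the upper 8 genes the points run from construct 87 through EV to construct 86, and in the lower 8 from construct 86 through EV to construct 87.

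Genes of the nuclear lamina and envelope, the structures named in the study's title, were more often called lower than higher with construct 87. Of 23 tested, 1 was higher and 10 were lower with construct 87 (47.8% called, against 25.6% of all genes), with a median log2 difference of -0.53 against 0.02 over all genes. These values include MAN1A1, a lower member listed in error that does not belong to the envelope. The lamins themselves did not separate the constructs in the fit without the block. LMNA, which encodes lamin A/C, was at 24940, 34050 and 18350 normalised reads with EV, 26750, 23110 and 14840 with construct 86 and 22810, 26040 and 18640 with construct 87. All 3 groups overlapped, and the difference between constructs was 0.09 (SE 0.3, adjusted p = 0.862). LMNB2 differed by 0.04 (SE 0.35, adjusted p = 0.946). LMNB1, lamin B1, was at 947, 930.2 and 865 with construct 86 and 1028, 1890 and 1311 with construct 87, against 2234, 2893 and 1324 with EV. Each construct 87 library was above each construct 86 library, but the difference of 0.58 (SE 0.3, adjusted p = 0.18) passed only with the replicate number as a block (adjusted p = 0.0483).

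Other envelope genes did separate the constructs. TMEM194A, an inner nuclear membrane protein also known as NEMP1, was at 420, 780.1 and 434 with EV, 1307, 1333 and 1089 with construct 86 and 119, 204 and 156 with construct 87. It is 1 of the 66 genes moved in opposite directions, in all 9 fits, and the difference between constructs was -2.98 (SE 0.28, adjusted p = 0.000143). TOR1AIP1, which encodes the lamina-associated protein LAP1, was at 3627, 2975 and 2374 with construct 86 and 1571, 1259 and 1053 with construct 87 against 1519, 1887 and 1645 with EV. LEMD3 (-0.79), LEMD2 (-0.64), the SUN-domain genes SUN1 (-0.56) and SUN2 (-0.74), and the torsin gene TOR1A (-0.65) were lower too. EMD, which encodes emerin, was the member higher with construct 87: 1248, 1237 and 1119 against 754, 744 and 732 with construct 86 and 1067, 929.9 and 689 with EV, a difference of 0.69 (SE 0.19, adjusted p = 0.0226). That call was lost in 5 of the fits that left out 1 library, with an adjusted p of 0.0559 on omitting construct 86 replicate 1, 0.072 on omitting construct 86 replicate 2, 0.0621 on omitting construct 86 replicate 3, 0.0722 on omitting construct 87 replicate 1 and 0.0758 on omitting construct 87 replicate 2. One of the 10 lower members, MAN1A1 (-2.15), is a mannosidase of the Golgi apparatus and does not belong to the envelope. With the block 4 higher and 12 lower passed, and on leaving out 1 library the higher and lower counts became 0 and 5 without construct 86 replicate 1, 0 and 4 without construct 86 replicate 2, 0 and 7 without construct 86 replicate 3 or construct 87 replicate 2, 0 and 6 without construct 87 replicate 1, and 1 and 4 without construct 87 replicate 3.

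Few cell cycle genes separated the constructs. Of 48 genes of the G1/S transition and DNA replication, 3 were higher and 5 lower with construct 87, and of 57 genes of G2/M and mitosis, again 3 were higher and 5 lower (16.7% and 14% called, with 25.6% over all genes). The medians were -0.03 and -0.09. With the replicate number as a block, 5 higher and 9 lower and 7 higher and 11 lower passed. Higher and lower counts of G1/S genes were 1 and 3 without construct 86 replicate 1 or 2, 1 and 4 without construct 86 replicate 3 or construct 87 replicate 2, 4 and 2 without construct 87 replicate 1, and 1 and 5 without construct 87 replicate 3, and those of G2/M genes 4 and 9 without EV replicate 2, 1 and 2 without construct 86 replicate 1 or 3, 0 and 2 without construct 86 replicate 2, 3 and 1 without construct 87 replicate 1, 0 and 3 without construct 87 replicate 2, and 0 and 5 without construct 87 replicate 3. The 10 lower members of both lists were CDT1, GINS3, TK1, E2F1, CHAF1B, CENPM, NEK2, FOXM1, MYBL2 and SGOL1, which include transcription factors, replication factors, an enzyme of nucleotide synthesis and centromere proteins. E2F1, the transcription factor of S-phase entry, was at 659, 677 and 802 with construct 86 and 194, 355 and 352 with construct 87 against 830.1, 918 and 653 with EV. MYBL2, which drives late cell cycle genes, was at 2480, 2598 and 1256 with EV, 1090, 1049 and 879 with construct 86 and 189, 372 and 339 with construct 87, a stepwise order without overlap and a difference of -1.80 (SE 0.32, adjusted p = 0.00283). FOXM1, its partner in mitotic transcription, differed by -1.33 (SE 0.36, adjusted p = 0.0208), a call that was not kept in every fit (adjusted p 0.073 on omitting construct 86 replicate 1, 0.0761 on omitting construct 86 replicate 2, 0.0852 on omitting construct 87 replicate 1 and 0.0576 on omitting construct 87 replicate 3). HMMR, a spindle protein, was higher with construct 87 (1.31), where it had fallen less from EV, and its adjusted p was 0.0915 on omitting construct 86 replicate 1, 0.072 on omitting construct 86 replicate 2, 0.0741 on omitting construct 87 replicate 2 and 0.0888 on omitting construct 87 replicate 3. MKI67, the proliferation marker, was at 2653, 3141 and 1068 and 1085, 2063 and 566 with overlap, and its difference of -0.94 (SE 0.65, adjusted p = 0.326) passed with the replicate number as a block (adjusted p = 0.00525).

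CDKN1A, the cyclin-dependent kinase inhibitor p21, was at 5584, 3889 and 3627 with EV, 11780, 10720 and 10730 with construct 86 and 11780, 8344 and 8245 with construct 87. The constructs overlapped, and both were above EV in every library, with a difference between them of -0.25 (SE 0.23, adjusted p = 0.465). Of 34 p53 targets, 1 was higher and 3 were lower with construct 87 (11.8% called, median -0.12), and 3 higher and 8 lower with the replicate number as a block. These counts were 2 and 3 without EV replicate 1, 2 and 5 without EV replicate 2, 1 and 5 without EV replicate 3, 0 and 1 without construct 86 replicate 1 or construct 87 replicate 2, and 0 and 3 without construct 86 replicate 3 or construct 87 replicate 1 or 3. BTG2, an antiproliferative p53 target, was at 2055, 1608 and 1415 with construct 86 and 1001, 629 and 682 with construct 87 against 330, 291 and 304 with EV. Of 12 cyclins, kinases and inhibitors of G1, 2 were higher and 2 lower (33.3% called), and 0 and 1 without construct 86 replicate 1 or 2 or construct 87 replicate 1 or 2, 1 and 2 without construct 86 replicate 3, and 1 and 1 without construct 87 replicate 3. RBL2, the pocket protein p130, was lower with construct 87, at 427, 549 and 613 against 1404, 1708 and 1714, and differed by -1.61 (SE 0.21, adjusted p = 0.000621). CCND1, cyclin D1, was at 6662, 11960 and 5532 with EV, 21020, 27730 and 23620 with construct 86 and 14600, 16390 and 10940 with construct 87. Its difference of -0.80 (SE 0.3, adjusted p = 0.0729) passed with the replicate number as a block (adjusted p = 0.00665) and without EV replicate 2 (adjusted p = 0.0171).

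Histone genes were the list with the highest median, among lists written with earlier results of these data known. Replication-dependent histone transcripts normally end in a stem-loop and carry no poly(A) tail, so a 3′ library of this kind reads the polyadenylated forms. Of 24 listed genes, 10 had values above 0 in both constructs. Of these, 6 were higher and 0 lower with construct 87 (60% called, against 25.6% of all genes), with a median of 1.59. Over the same 10 genes 2 rose and 3 fell from EV with construct 86 (18.0% and 17.6% of all genes). With construct 87, 7 of them rose (5.91% of all genes). HIST1H2AC, an H2A gene, was at 324, 212 and 269.5 with EV, 204, 184 and 204 with construct 86 and 1091, 511 and 530.5 with construct 87. Construct 86 was just below the EV range and construct 87 wholly above it, a difference of 1.75 (SE 0.29, adjusted p = 0.002). HIST3H2A fell with construct 86, to 58.1, 49.2 and 83.2 from 287, 122 and 314, and with construct 87 was at 332, 172 and 263, overlapping the EV range.

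Matrix and adhesion genes made up the list with the lowest median. The list was written with earlier results of these data known and holds SCUBE3, SPON2, MMP1 and BGN, so its rank partly reflects that choice. The 23 collagen genes, taken by symbol after their values were seen, had a median of -0.71 with 39.1% called. Of 55 tested, 2 were higher and 27 lower with construct 87 (52.7% called), with a median of -1.13. From EV, 44 of them rose and 2 fell with construct 86, where 18.0% of all genes rose and 17.6% fell. With construct 87, 17 rose and 3 fell, where 5.91% of all genes rose and 4.43% fell. Lower members included the structural proteins FN1, fibronectin (-3.12), POSTN, periostin (-2.93), and NID1, nidogen (-2.88). Chains of collagen VI were lower or not called, with COL6A3 at -2.67, COL6A2 at -2.16, and COL6A1 at -1.37, adjusted p = 0.0536. The integrin subunits ITGB3 (-2.57), ITGA1 (-2.36) and ITGAV (-1.14) were lower, whereas ITGB5 was higher (1.46). Of metalloproteinases other than MMP1, MMP2 differed by -1.52 and MMP17 by -1.91, while MMP14 did not differ beyond its spread (-0.02, adjusted p = 0.973). The fibroblast markers summed to 769.5 to 932.1 normalised reads with construct 86 and 718.5 to 1006 with construct 87, and to 200 to 332.3 with EV, so that their sum overlapped between constructs. Its members went different ways, with FAP at 52.3 to 85.6 with construct 86 and 11.6 to 19.7 with construct 87, and LUM at 276.7 to 456.2 and 375.1 to 710.4. The part of other cells in these levels was not tested.

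TGF-beta signalling induces many matrix genes. Of 31 genes tested, 1 was higher and 16 lower with construct 87 (54.8% called, median -0.71), and 2 higher and 19 lower with the replicate number as a block. The counts were 2 and 16 without EV replicate 2. TGFB2, a ligand, was the higher member (1.59). LTBP1, which stores the latent ligand in the matrix, was at 78.9, 169.9 and 123 with EV, 557, 698 and 587 with construct 86 and 145, 139.6 and 144 with construct 87. Among receptors, TGFBR3, the co-receptor betaglycan, was at 62.2, 94.1 and 74.4, 619, 503 and 344 and 124, 123 and 94.7 in the same order, while TGFBR1, the signalling receptor, was at 486, 626 and 466, 908, 782 and 871 and 327, 313 and 351. TGFBR1 is thereby 1 of the 66 opposite genes, although it was opposite in 0 of the fits that left out 1 library. TGFBR2 was not called (0.14, adjusted p = 0.707). Of the targets, ID2, an inhibitor of differentiation, was at 94.5, 61.2 and 47.4 with EV, 411, 253 and 244 with construct 86 and 56.8, 21.4 and 39.7 with construct 87, a difference of -2.98 (SE 0.39, adjusted p = 0.000607). The inhibitory SMAD genes SMAD6 (-1.19) and SMAD7 (-0.82) and the SMAD corepressor SKIL (-1.30) were lower.

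Markers of melanoma cell states differed in both directions. Of 27 dedifferentiation and mesenchymal genes, 3 were higher and 11 lower with construct 87 (51.9% called, median -0.55), and 3 and 7 without construct 87 replicate 1. SNAI2, a repressor of epithelial genes, was at 26.7, 12.8 and 18.3 with EV, 163, 125 and 177 with construct 86 and 25.2, 22.3 and 23.4 with construct 87. CD44, a hyaluronan receptor, was at 32350, 27010 and 24030 with construct 86 and 5885, 7088 and 7021 with construct 87 against 8273, 12750 and 11000 with EV. AXL, a receptor kinase of the invasive state, went the other way, with 6306, 9075 and 5546 with EV, 2744, 3779 and 3343 with construct 86 and 8365, 11270 and 7797 with construct 87, and a difference of 1.47 (SE 0.24, adjusted p = 0.00182). SOX9 (1.30) and NRG1 (1.75) were higher as well. Of 18 melanocyte lineage genes with values, from 29 listed, 1 was higher and 8 were lower (50% called, median -0.77). With the block there were 2 higher and 11 lower, and 0 and 6 without construct 86 replicate 2 or construct 87 replicate 2, and 0 and 7 without construct 87 replicate 1. PAX3, an upstream regulator of the lineage, was at 149, 164 and 132, 189, 182 and 170 and 54.6, 66.8 and 58, lowest with construct 87. Its target MITF was at 674, 614 and 471, 822, 483 and 393 and 730.4, 764 and 695, with a difference of 0.44 (SE 0.27, adjusted p = 0.258), which passed without construct 86 replicate 1 (adjusted p = 0.044). The 7 melanocyte markers summed to 13580 to 20120 normalised reads with construct 86, 7824 to 12130 with construct 87 and 2959 to 6523 with EV. Nearly all of that was SOX10, whose difference was -0.71, adjusted p = 0.169.

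Lysosomal genes were lower with construct 87 in 15 of 41 cases and higher in 3 (43.9% called, median -0.50). With the replicate number as a block there were 4 higher and 24 lower, and the higher and lower counts were 3 and 7 without construct 86 replicate 2, and 3 and 9 without construct 87 replicate 3. CTSB, the protease cathepsin B, was at 2770, 3139 and 3223 with EV, 8025, 9302 and 9482 with construct 86 and 3357, 3554 and 3811 with construct 87. GLB1, the lysosomal beta-galactosidase, was at 792, 811 and 793, 1986, 2112 and 1902 and 1009, 911 and 775. In both, construct 86 stood above every other library. PPT1, a thioesterase that removes fatty acids from proteins, was at 3438, 2490 and 2728, 5949, 4139 and 3719 and 1654, 1492 and 1479, on opposite sides of EV, in 1 of the fits that left out 1 library. GAA, the acid glucosidase that degrades glycogen, was higher with construct 87, at 1760, 2036 and 1831 against 469, 828 and 687 and 930.1, 1254 and 1152 with EV. Autophagy genes were split, 2 higher and 2 lower of 31 (median -0.04, and 5 higher and 5 lower with the block, or 2 and 1 without construct 86 replicate 1 or 2 or construct 87 replicate 2 or 3), with BECN1, the Beclin gene, higher (0.85) and the initiating kinase ULK2 lower (-1.80).

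Genes of the endoplasmic reticulum folding machinery were lower with construct 87 in 9 of 22 cases and higher in 1 (45.5% called, median -0.47). Higher and lower counts became 0 and 9 without EV replicate 1, 2 and 10 without EV replicate 2, 0 and 6 without construct 86 replicate 1, 0 and 7 without construct 86 replicate 2 or construct 87 replicate 1 or 3, and 0 and 8 without construct 86 replicate 3, and 2 higher and 12 lower with the block. PDIA4, a disulfide isomerase, was at 2191, 2746 and 2901 with EV, 5101, 5278 and 5553 with construct 86 and 1982, 2275 and 2642 with construct 87. The sensor kinase EIF2AK3, or PERK, was at 151, 207 and 156, 573, 532 and 427 and 203, 203 and 126, so construct 87 overlapped EV in both genes. DNAJB11, a cochaperone, was at 452, 415 and 408, 738, 605 and 612 and 239.6, 254 and 274, and belongs to the 66 opposite genes (in 3 of the 9 fits). Cytosolic chaperones went the other way: of 36 heat shock genes 9 were higher and 0 lower with construct 87 (25% called, median 0.44), and 16 higher and 1 lower with the replicate number as a block. Leaving out 1 library changed them to 3 and 0 without construct 86 replicate 2, 5 and 0 without construct 87 replicate 2, and 4 and 0 without construct 87 replicate 3. FKBP4, a cochaperone of HSP90, was at 3610, 3403 and 2426 with EV, 813, 726 and 802 with construct 86 and 2056, 2316 and 2067 with construct 87. HSF2, a heat shock transcription factor, was at 321, 224 and 294, 79.4, 82.6 and 108 and 296, 237 and 389. From EV, 23 of the 36 fell with construct 86 and 4 with construct 87, and 0 rose with either. Of all genes, 17.6% fell with construct 86 and 4.43% with construct 87.

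Lists of growth and energy metabolism had medians above that of all genes, but few members were called in the fit without the block. Of 44 MYC targets and ribosome biogenesis genes, 6 were higher and 0 lower (13.6% called, median 0.37), with 15 higher and 1 lower in the fit with the block, and 3 and 0 without construct 87 replicate 2. PA2G4, a growth-linked nucleolar protein, was at 6013, 5048 and 4179 with EV, 2123, 1753 and 1856 with construct 86 and 3926, 3970 and 4053 with construct 87. DKC1, the pseudouridine synthase dyskerin, was at 4131, 3969 and 2956, 1607, 1376 and 1337 and 2394, 2848 and 2616. Of 36 proteasome genes, 20 were higher and 0 lower with the block, where 44.1% of all genes passed. In the fit without the block 6 were higher and 0 lower (16.7% called, median 0.46). These became 10 and 0 without EV replicate 2, 1 and 0 without construct 86 replicate 2 or 3 or construct 87 replicate 1, 3 and 0 without construct 87 replicate 2, and 2 and 0 without construct 87 replicate 3. PSMC4, a proteasome ATPase, was at 2507, 2036 and 1850 with construct 86 and 4646, 4421 and 4022 with construct 87 against 4351, 4108 and 3150 with EV, so that construct 87 overlapped EV.

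Of 73 nuclear genes of oxidative phosphorylation, 5 were higher and 0 lower with construct 87 (6.85% called, median 0.30), and 16 higher and 1 lower with the block. Leaving out 1 library gave 8 and 1 without EV replicate 2, 3 and 0 without construct 86 replicate 1 or 2 or construct 87 replicate 1, and 2 and 0 without construct 87 replicate 3. UQCRC1, a core subunit of complex III, was at 5062, 3595 and 3622 with EV, 1745, 1897 and 2236 with construct 86 and 3736, 3740 and 4236 with construct 87. Its difference was 1.00 (SE 0.2, adjusted p = 0.00436), and construct 87 overlapped EV whereas every construct 86 library was below both. Of 75 cytosolic ribosomal protein genes 0 were called in either direction with limma (median 0.13), with 1 higher and 0 lower at an unadjusted p under 0.05, 1 and 0 with voom weights, and 5 higher and 1 lower with the block. The counts were 1 and 0 without EV replicate 1 or 3, and 2 and 0 without EV replicate 2. Of 12 mitochondrially encoded genes 0 were called (median 0.18), with 0 higher and 0 lower at an unadjusted p under 0.05, 0 and 0 with voom weights and 1 higher and 0 lower with the block. Ribosomal and respiratory genes are short, and transcript length moved with the difference between constructs: its median was 0.21 in the shortest of 5 equal groups of genes (median length 1242.5 bases), 0.11, 0.01 and -0.07 in the next ones, and -0.19 in the longest (7470 bases). With that trend removed, the medians of the respiratory and ribosomal protein lists were 0.06 and -0.08, so that the direction of the latter turned. The mitochondrially encoded list turned too, to -0.06. Other medians also moved. Those of the histone, proteasome, matrix, and lamina and envelope lists shrank to 1.39, 0.29, -0.95 and -0.39. Among lists that moved away from the median of all genes were lysosomal genes (-0.56), endoplasmic reticulum genes (-0.57) and Hippo and YAP targets (0.22).

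Stress and nutrient response lists held genes in both directions. Of 31 ATF4 and amino acid genes, 9 were higher and 4 lower with construct 87 (41.9% called, median 0.07). ATF3, a stress transcription factor, was at 242, 166 and 179 with EV, 182, 118 and 118 with construct 86 and 690.4, 475 and 301 with construct 87, and VLDLR, a lipoprotein receptor, at 87.8, 80.4 and 76.5, 408, 534 and 605 and 153, 113 and 188. The former was thus high with construct 87 and the latter with construct 86. The 9 and 4 became 9 and 2 without EV replicate 1, 5 and 1 without construct 86 replicate 1 or 2, 4 and 3 without construct 86 replicate 3 or construct 87 replicate 2, and 6 and 1 without construct 87 replicate 1 or 3. Of 28 NRF2 and glutathione genes, 3 were higher and 5 lower (28.6% called, median 0.23; with the block 6 higher and 9 lower). Leaving out 1 library gave 1 and 3 without construct 86 replicate 1 or 2 or construct 87 replicate 1, 1 and 5 without construct 86 replicate 3, and 1 and 4 without construct 87 replicate 3. HMOX1, heme oxygenase, was at 439, 375.4 and 212, 1217, 1593 and 960.3 and 409.8, 419.6 and 271, high with construct 86 alone. The aldo-keto reductases AKR1C2 (-3.25) and AKR1C1 (-2.11) were lower with construct 87, but are near-identical copies whose reads can be split between them. Of 36 glycolysis and hypoxia genes, 8 were higher and 4 lower (33.3% called, median 0.17). The glycolysis counts became 3 and 3 without construct 86 replicate 1 or 2 or construct 87 replicate 3, and 4 and 3 without construct 87 replicate 2. SLC2A1, the main glucose transporter, was at 3417, 4951 and 2843 with EV, 1554, 1204 and 1218 with construct 86 and 3443, 4294 and 3016 with construct 87, where construct 87 overlapped EV.

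Lipid synthesis genes were called at close to the share of all genes and transporters above it. Of 31 cholesterol and fatty acid synthesis genes, 2 were higher and 5 lower with construct 87 (22.6% called, median -0.17; with the block 4 higher and 10 lower). Their counts were 0 and 4 without EV replicate 1 or construct 87 replicate 1 or 2, 1 and 6 without EV replicate 3, 0 and 2 without construct 86 replicate 1 or construct 87 replicate 3, 0 and 3 without construct 86 replicate 2, and 1 and 4 without construct 86 replicate 3. SQLE, squalene epoxidase, was at 761, 566 and 677 with EV, 791, 695 and 675 with construct 86 and 345, 408 and 389 with construct 87, and passed against EV with the latter alone. Of 27 transporters, 2 were higher and 7 lower (33.3% called, median -0.25). With the block 3 higher and 11 lower passed, and 2 and 4 without construct 86 replicate 1 or 2 or construct 87 replicate 1. SLC38A2, which imports neutral amino acids, was at 6494, 6399 and 6988, 11640, 10360 and 9904 and 2856, 3359 and 3623, on opposite sides of EV without overlap and in all 9 fits. SLC1A1, a glutamate transporter, was at 198, 301 and 185, 391, 459 and 419 and 107, 72.8 and 94.7, opposite in 6 of the 9.

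Lists of signalling pathways held genes in both directions. Of 31 Hippo and YAP targets, 8 were higher and 6 lower with construct 87 (45.2% called, median 0.03), which became 8 and 3 without construct 86 replicate 1 or construct 87 replicate 2 or 3, and 8 and 2 without construct 86 replicate 2. CYR61, a matricellular target of YAP, was at 1755, 1550 and 1632 with EV, 1299, 830.1 and 512 with construct 86 and 2542, 3388 and 2876 with construct 87, a difference of 1.83 (SE 0.29, adjusted p = 0.00153). Of 30 MAPK feedback and AP-1 genes, 5 were higher and 3 lower (26.7% called, a share near that of all genes, median -0.08). With the block there were 7 higher and 5 lower, and 3 and 4 without construct 86 replicate 1, and 3 and 3 without construct 86 replicate 2 or construct 87 replicate 1. SPRY4, a feedback inhibitor of receptor kinases, was at 236, 549.9 and 390.2, 3464, 4840 and 3481 and 1141, 1221 and 609.9, rising with both constructs and less with construct 87. Of 26 FOXO and AKT targets, 1 was higher and 6 lower (26.9% called, median -0.33, with the block 2 higher and 11 lower). These were 0 and 8 without construct 86 replicate 1, 0 and 5 without construct 86 replicate 2, and 0 and 6 without construct 86 replicate 3 or construct 87 replicate 1. BCL6, a transcriptional repressor, was at 62.2, 125 and 95.9, 634, 1450 and 1306 and 265, 331 and 288, with the same graded order. Of 14 genes of IGF binding and signalling 1 was higher and 2 were lower (21.4% called, median -0.02, with the block 1 higher and 4 lower, and 1 and 1 without construct 86 replicate 2 or construct 87 replicate 3). IGFBP3 was high with construct 87, and IGFBP7 and the insulin receptor INSR (-1.05) were high with construct 86.

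Of 32 NF-kB and cytokine genes, 1 was higher and 4 lower with construct 87 (15.6% called, median -0.16), and 5 higher and 7 lower with the block. The counts were 1 and 9 without construct 86 replicate 1, and 2 and 3 without construct 86 replicate 3. IL24, a cytokine of the interleukin-10 family, was at 1327, 614 and 475 with EV, 643, 989 and 964 with construct 86 and 5391, 4922 and 3584 with construct 87, and CSF1, the macrophage growth factor, at 237, 386 and 345, 837, 1644 and 1490 and 117, 296 and 290.2. Each construct thus stood above all EV libraries for one of the pair. Of 40 interferon and nucleic acid sensing genes, 5 were higher and 5 lower (25% called, close to the share of all genes, median -0.03). With the block 7 higher and 11 lower passed, and 5 and 8 without EV replicate 2. TLR3, a receptor of double-stranded RNA, was at 64.5, 103 and 105, 297, 295 and 249.7 and 56.8, 69.4 and 76.4, high with construct 86 alone. Of 16 HLA class I genes, 0 were higher and 1 was lower (6.25% called, median -0.24, with the block 3 higher and 4 lower): ERAP1, a peptide-trimming protease (-1.04). At an unadjusted p under 0.05 the counts were 3 higher and 3 lower. After adjustment they were 1 and 1 without EV replicate 1 or construct 86 replicate 3, and 2 and 1 without EV replicate 2.

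In 4 further lists between 11.8% and 21.9% of the members were called, against 25.6% of all genes. Of 17 genes of RNA interference, the machinery that processes short RNAs, 1 was higher and 1 lower with construct 87 (median 0.10, with the block 3 higher and 5 lower). Higher and lower counts were 1 and 2 without EV replicate 1, 2 and 2 without EV replicate 2, 2 and 1 without EV replicate 3, 0 and 1 without construct 86 replicate 1 or construct 87 replicate 1, 0 and 0 without construct 86 replicate 2, 0 and 2 without construct 86 replicate 3, and 1 and 0 without construct 87 replicate 3. AGO4, an Argonaute protein, differed by -0.96 and XPO5, the exporter of precursor microRNAs, by 0.95. Neither call held in every fit, with an adjusted p for AGO4 of 0.0664 on omitting construct 86 replicate 2 and 0.0537 on omitting construct 87 replicate 3, and for XPO5 of 0.0566 on omitting construct 86 replicate 1, 0.0532 on omitting construct 86 replicate 2, 0.0807 on omitting construct 86 replicate 3, 0.0914 on omitting construct 87 replicate 1 and 0.0836 on omitting construct 87 replicate 2. Of 33 splicing and hnRNP genes, 3 were higher and 2 lower (median 0.16, with the block 6 higher and 2 lower). These became 1 and 2 without construct 86 replicate 2, and 2 and 1 without construct 87 replicate 1. HNRNPA3, an RNA-binding protein, was at 2699, 3409 and 2369 with EV, 2998, 2953 and 2605 with construct 86 and 866, 1329 and 1490 with construct 87. Of 16 genes of the BCL2 family, 1 was higher and 2 were lower (median -0.03, with the block 3 higher and 3 lower, and 2 and 2 without EV replicate 2, and 0 and 2 without construct 86 replicate 2 or construct 87 replicate 1). BMF, a proapoptotic member, was at 46.7, 36.5 and 23.7, 396, 957 and 819.6 and 162, 182 and 112, rising with both. Of 32 actin and SRF genes, 4 were higher and 3 lower (median -0.04, with the block 9 higher and 7 lower). The actin counts became 2 and 1 without construct 86 replicate 1 or construct 87 replicate 2, and 2 and 2 without construct 87 replicate 1. ACTA2, smooth muscle actin, was at 179, 145 and 142 with EV, 50.4, 82.6 and 114 with construct 86 and 401, 361 and 345 with construct 87, on opposite sides of EV, in 3 of the fits that left out 1 library.

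**Figure D5:**
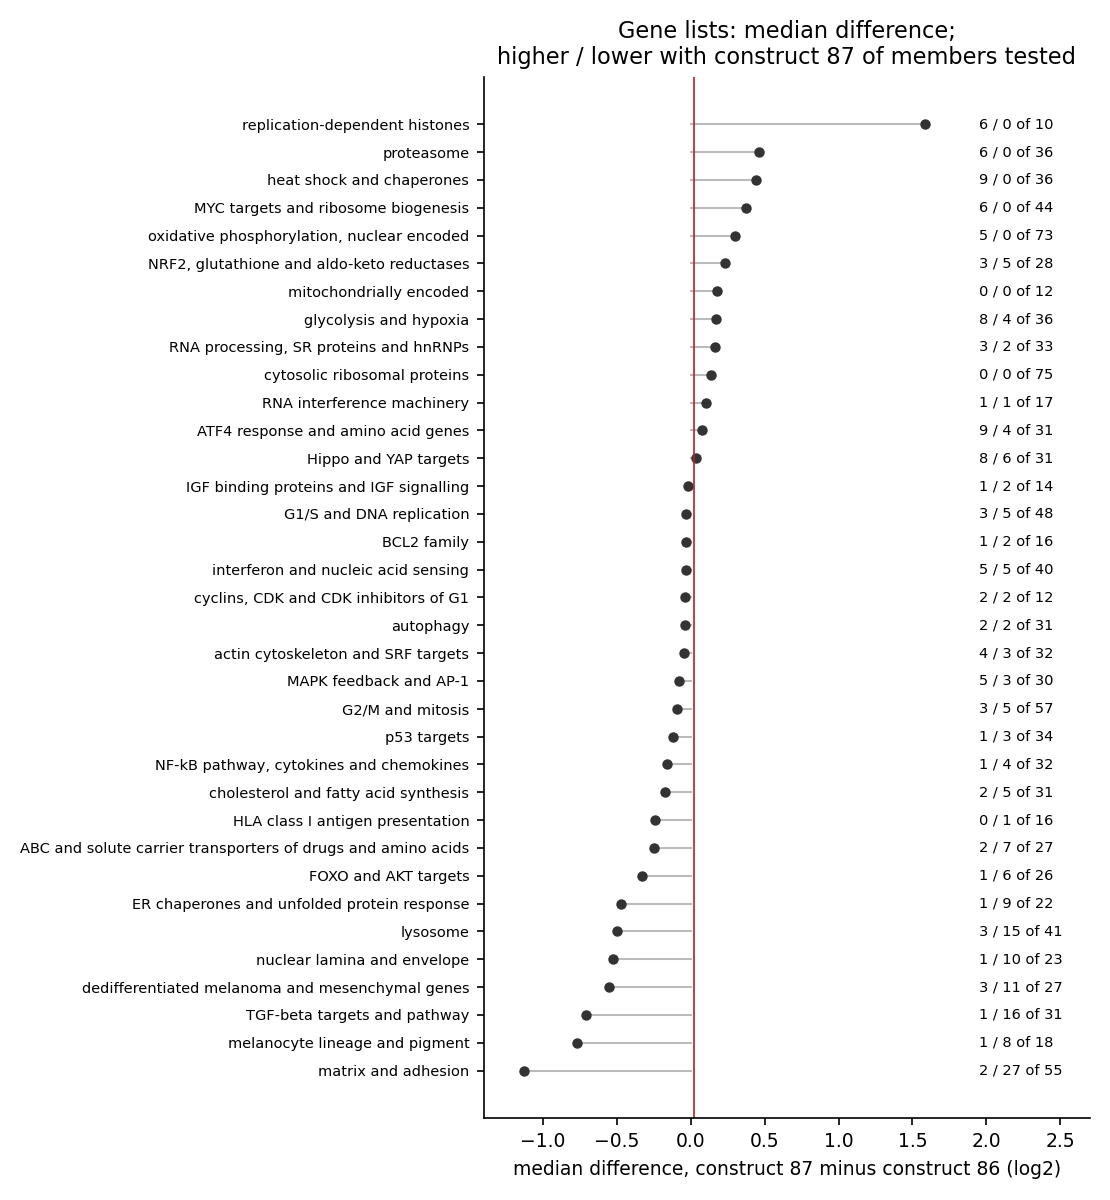
Median log2 difference, construct 87 minus construct 86, of the tested members of each gene list, with the counts of members higher and lower with construct 87 at the right and a red line at the median of all genes (0.02). Histone genes lie farthest to the right (1.59) and matrix and adhesion genes farthest to the left (-1.13). The lists were written with earlier results of these data known.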

How the data were processed

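Per the labels, RNA of A375 cells was made into QuantSeq 3′ libraries, 3 per group. The authors deposited a normalised read count per gene, used here as a score: reads times a constant per library, rounded to whole numbers. Per the submitters' processing notes, STAR, featureCounts, Subread and edgeR were used with hg19, with no version given. Of 60420 IDs, 45742 stood at 0 in all libraries. A further 453 IDs had values in the construct 87 files alone, and 400 in all files but these, so that a 0 throughout a group marks a filtered gene rather than an unexpressed one. The filtering thus differed along with the construct, and its part in the differences was not tested.

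Reads were obtained by dividing by that constant, estimated from the gaps between values. Repeated rows of an ID (1405 IDs) were reduced to their maximum. Libraries were rescaled together with the TMM formula (30% of log ratios and 5% of abundances trimmed). The test was limma 3.58.1 in R 4.3.3 on log2(value + 1) with trended variance, a mean per group (3 in all) and 6 residual degrees of freedom, two-sided, Benjamini-Hochberg adjusted over 13825 genes, threshold 0.05. It was also run on simulated data in which each library varied independently, so a pairing by replicate number was not part of that check. Fold changes on this scale understate those of genes with few reads. Transcript lengths (GENCODE v29) were found for 99.6% of genes.

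Replicate numbers pair the libraries: deviations from the group mean correlated across genes with r between 0.215 and 0.722 in the 9 pairs of the same number and between -0.644 and 0.14 in the other 18. The fit without the block is the main one. It leaves this pairing in its spread, and it called 3535 genes between the constructs where the fit with the block called 6094.

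The comparison and gene lists were chosen with earlier results of these data known. Named are MITF, CCND1, MKI67, CDKN1A, emerin (EMD), the 3 lamin genes and the SPANX genes, then the 12 largest differences in each direction (mean of at least 5 reads in 1000000, no overlap), up to 8 opposite genes in each direction by the smaller change, and up to 4 members of each list by adjusted p. Other members are given by their difference only. A few named genes are not reported here.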

Additional observations from a re-analysis of the deposited data

How the results depend on the processing

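Counts of genes that differ between the constructs (3535, with 1757 higher and 1778 lower with construct 87) kept within 1.5 times under median-ratio size factors, the deposited values, pseudocounts of 0.5 and 5, a minimum mean of 10 reads, no variance trend, 6 libraries only, a length trend removed, sums of repeated rows and voom weights (chosen after seeing the data), with 3436 to 4179 genes. The replicate block, with the numbers pairing the libraries, gave 6094 (3073 and 3021), among them all 3535, and with the length trend also removed 6551 (3337 and 3214), of which 3509 were shared. Among the 173 named genes the block ended 0 calls and added 15. Leaving out 1 library gave 2207 to 4191 (1106 to 2071 higher, 1101 to 2120 lower), with more calls without EV replicates 2 or 3 (4191 and 3619) and fewer without the others. The cause was not tested. The 66 opposite genes (44 and 22) became 358 (216 and 142) with the replicate block, 112 (78 and 34) with the length trend removed, 441 (248 and 193) with both, and 21 to 81 (19 to 49 and 2 to 32) leaving out 1 library. The cause of the change with length was not tested. The SPANX sum difference of -0.78 ranged from -1.06 to -0.32, in all cases at an exact p of 0.2 or 0.4. No named gene reversed direction. The planned edgeR test was not run: in 4 of 9 libraries a read is worth less than 1, and 10.3% to 31.0% of values up to 100 there stand for 2 read numbers. Depth limits genes with few reads, such as SPANXD, with 2 reads over the 3 construct 86 libraries.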

Other observations

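Other gene families were chosen by symbol after their values were seen, with pseudogenes and unrelated genes of like symbol left out, and are given with no test of the family beside the 25.6% of all genes that were called. Of 13 keratin genes, whose products form the intermediate filaments of epithelial cells, 6 were higher and 0 lower with construct 87 (46.2% called), with a median log2 difference of 1.14. KRT8 had a mean of 1162 normalised reads with EV, 283 with construct 86 and 1360 with construct 87. KRT18, its filament partner, stood at 7658, 1842 and 5156 in the same order. KRT80 was at 4635, 864 and 5377, and KRT14 at 299, 83.4 and 452. From EV, 10 of the 13 fell with construct 86 and 1 with construct 87, where 17.6% and 4.43% of all genes fell. Keratins with near-identical copies, such as KRT81 and KRT86, are uncertain.

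Of 9 genes of the MAGE-A and MAGE-C groups, cancer-testis genes like SPANX, 4 were higher and 1 lower with construct 87 (55.6% called, median 0.86). MAGEA4 was at a mean of 18240 normalised reads with EV, 6315 with construct 86 and 13880 with construct 87, and MAGEA10 at 802, 318 and 936. The lower member, MAGEC2, was at 2417, 2271 and 1300. Leaving out 1 library gave 4 and 0 without construct 86 replicate 1 or construct 87 replicate 2 or 3. Of 23 collagen genes, 1 was higher and 8 were lower with construct 87 (39.1% called, median -0.71), 3 and 12 with the replicate number as a block, and 0 and 11 without construct 86 replicate 1, 2 and 6 without construct 86 replicate 2, 0 and 8 without construct 87 replicate 2, and 0 and 7 without construct 87 replicate 3. Of 37 protocadherin genes, 10 were higher and 3 lower (35.1% called, median 0.32), and 12 and 8 with the block. The 3′ ends of the numbered PCDHA, PCDHB and PCDHG genes were not compared. Reads of one may be counted for another, so these are not certain to be 37 separate measurements. Zinc finger genes named ZNF were split, with 44 higher and 46 lower of 436 (20.6% called, median -0.05). Their counts were 67 and 86 with the block and 23 and 30 without construct 86 replicate 1, 27 and 21 without construct 86 replicate 2, 28 and 31 without construct 87 replicate 1, 21 and 30 without construct 87 replicate 2, and 30 and 27 without construct 87 replicate 3. TEK, an endothelial receptor, was at 34 to 49.4 normalised reads with construct 86 and 7.78 to 9.7 with EV, and was filtered to 0 in the construct 87 files, so it entered no comparison.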
